A study of Mus musculus with 4 samples.

Results

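The small RNAs described here were sequences of 21 to 26 nt that ended within 100 nt of the end of a messenger RNA in mouse liver and spleen. A sequence was taken when at least 50% of it lay inside an annotated protein-coding 3' UTR and its own 3' end lay 0 to 100 nt upstream of an annotated 3' end of a transcript of that gene. Of 7845 listed sequences, 735 met this rule: 443 of 4273 in WT liver, 206 of 2634 in WT spleen, 51 of 560 in Miwi2-/- liver and 35 of 378 in Miwi2-/- spleen. For comparison, 3656 sequences of the same lengths ended elsewhere in the 3' UTR. All mice were adults of strain C57BL/6, either WT or lacking Miwi2, a Piwi family gene, and there was 1 library for each tissue and genotype. How many mice went into a library is not given in the sources used here. RNA was size-selected on a gel before sequencing. The lists were made from WT clusters of sense small RNAs at the 3' UTRs of 488 genes in liver and 345 in spleen, so a Miwi2-/- list holds only sequences in genes that formed a cluster in the WT tissue. A listed sequence counted once whatever its number of reads. Tests therefore compare libraries and not genotypes, and because many sequences overlap one another their p-values overstate the evidence.

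The 3' end of most messenger RNAs is made by cutting the growing transcript and adding a poly(A) tail. The cut is placed by the poly(A) signal, a hexamer that is most often AATAAA and less often ATTAAA, which lies a short way upstream of the cleavage site and is bound by the cleavage and polyadenylation complex. Replication-dependent histone messages are an exception, since they typically end after a stem-loop and carry no poly(A) tail.

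The sequences that follow are shown because they end at or close to the annotated end of genes that carried several such small RNAs, or because the same site was found in WT and Miwi2-/- tissue. They are printed 5' to 3' in the direction of the messenger RNA, with positions on NCBIM37 (mm9), and capitals mark the hexamer where the whole of it lies in the sequence.
Alb, WT liver, chr5:90905604-90905629, plus strand: attAATAAAaaatggaaagaatctaa
Gpx1, WT liver, chr9:108242646-108242671, plus strand: actaagAATAAAgtgctgaatatcaa
Gpx1, Miwi2-/- liver, chr9:108242647-108242669, plus strand: ctaagAATAAAgtgctgaatata
Adh1, WT liver, chr3:137953630-137953653, plus strand: AATAAAgtacttgtgtaagctatc
Adh1, Miwi2-/- liver, chr3:137953628-137953653, plus strand: ccAATAAAgtacttgtgtaagctatc
Mgst1, WT liver, chr6:138105244-138105267, plus strand: tagacacatgaATTAAAaacatta
Ahsg, WT and Miwi2-/- liver, chr16:22899487-22899509, plus strand: ttctcaaataagaaggctctgaa
Lmo2, WT spleen, chr2:103822005-103822029, plus strand: agacttAATAAAaatgacaagctga
Lmo2, Miwi2-/- spleen, chr2:103822008-103822030, plus strand: cttAATAAAaatgacaagctgaa
Rplp1, WT spleen, chr9:61761099-61761123, minus strand: ttgttaagttggctAATAAAgagca
Rplp1, Miwi2-/- spleen, chr9:61761094-61761116, minus strand: gttggctAATAAAgagctgaaca
Trim25, WT spleen, chr11:88881584-88881607, plus strand: tgAATAAAgttcaaatcataagta
Hbb-b2, WT spleen, chr7:110961046-110961068, minus strand: atctAATAAAtgatatttactga
Adam19, WT spleen, chr11:45960822-45960845, plus strand: ttaaaacaaattgtcatgaggaaa
Hist1h3g, Miwi2-/- spleen, chr13:23627792-23627816, plus strand: gaactgtagcgctttttccaactta
The Alb, Trim25, Adam19 and WT Gpx1 sequences end at the last annotated base of the transcript. The Ahsg and Hist1h3g ends have neither hexamer, and the Adam19 sequence begins inside its ATTAAA. The last A of the Alb, Gpx1, Ahsg, Trim25, Hbb-b2, Hist1h3g and Rplp1 sequences does not match the genome.

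The lists followed the tissue in their genes. Of 76 plasma protein genes of the liver, 20 had 21 to 26 nt 3' UTR sequences in WT liver and 0 in WT spleen, while of 63 blood cell genes 7 had them in WT spleen and 2 in WT liver. By sequences the blood cell list was less bound to the tissue, with 91 in WT spleen and 57 in WT liver. Trim25 alone held 63 and 54 of these. The lists hold no level of messenger RNA, so the loss of Miwi2 was not checked from them. Each RNA was given the strand of its gene. The deposited cluster strand was the same for 439 of 443, 205 of 206, 51 of 51 and 35 of 35 of the sequences in WT liver, WT spleen, Miwi2-/- liver and Miwi2-/- spleen. The clusters were set on the 3' UTRs of genes and helped to choose the gene. These counts are therefore no check on the strand of the RNA. The hairpin of Mir21, a microRNA gene at chr11:86397569-86397660, lies in the annotated 3' UTR of Vmp1, an autophagy gene. Known microRNAs were to be removed by the authors before alignment, but sequences of this hairpin remained in the lists. It gave 161, 157, 70 and 50 sequences, which is 6.98%, 10.1%, 20.1% and 22.0% of all 21 to 26 nt 3' UTR sequences in the same order of libraries. None of them lay within 100 nt of an end, so they weigh only on the rest of the 3' UTR, and values without Vmp1 are given wherever they changed a result.

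Small RNA 3' ends were denser in the last 100 nt than in the rest of the 3' UTR in all 4 libraries. In WT liver there were 4.97 sequences per kb in the end window and 1.62 per kb in the rest, a ratio of 3.06 (95% CI 2.75-3.40). WT spleen had 3.07 per kb in the window and 1.57 in the rest, a ratio of 1.96 (1.68-2.27). In the Miwi2-/- lists the densities were 0.572 and 0.255 per kb in liver, a ratio of 2.25 (1.63-3.03), and 0.522 and 0.224 per kb in spleen, a ratio of 2.33 (1.58-3.36). The end windows made up 7.31% of the 3' UTR length of the liver genes and 7.28% of that of the spleen genes. The adjusted p-values in the 4 libraries were 5.59e-78, 2.76e-16, 1.37e-06 and 2.68e-05 by exact binomial tests with Benjamini-Hochberg adjustment. Densities cannot be set side by side between WT and Miwi2-/- libraries, because the lists differ in size.

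The ratio was smaller when each gene was compared with itself. Genes with a short 3' UTR have most of it inside the window, and some of them carried many sequences. With each gene keeping its own number of sequences, the Mantel-Haenszel ratio was 1.45 in WT liver (adjusted p = 5.12e-09, exact conditional test), where 431 sequences lay in the window against 336 expected. The within-gene ratio was 1.17 in WT spleen (adjusted p = 0.131), 0.915 in Miwi2-/- liver and 0.900 in Miwi2-/- spleen (adjusted p = 0.726 for both, exact tests). Leaving out Vmp1 raised the within-gene ratios to 1.75 in WT liver (adjusted p = 3.42e-18, exact test), 1.64 in WT spleen (adjusted p = 1.07e-07), 1.57 in Miwi2-/- liver (adjusted p = 0.0223) and 1.82 in Miwi2-/- spleen (adjusted p = 0.0260). Leaving out this 1 gene thus took 3 of the 4 within-gene ratios past the threshold. The window was denser than the rest in 193 of 479 genes in WT liver and in 121 of 330 in WT spleen.

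Within the window most sequences ended in the last 30 nt. In WT liver 143 of 443 sequences ended 0 to 9 nt from the annotated end, which is 32.3% (Wilson 95% CI 28.1-36.8). The same band held 63 of 206 in WT spleen (30.6%, 24.7-37.2), 22 of 51 in Miwi2-/- liver (43.1%, 30.5-56.7) and 12 of 35 in Miwi2-/- spleen (34.3%, 20.8-50.8). Exactly at the annotated end lay 22, 6, 4 and 1 sequences. The median distance was 24 nt in WT liver, 19.5 nt in WT spleen, 18 nt in Miwi2-/- liver and 12 nt in Miwi2-/- spleen. Another 28, 12, 9 and 1 sequences ran past the annotated end, by at most 12 nt. They were counted neither near the end nor in the rest. They stay in the totals behind the shares and the counts of each gene.

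**Figure D1:**
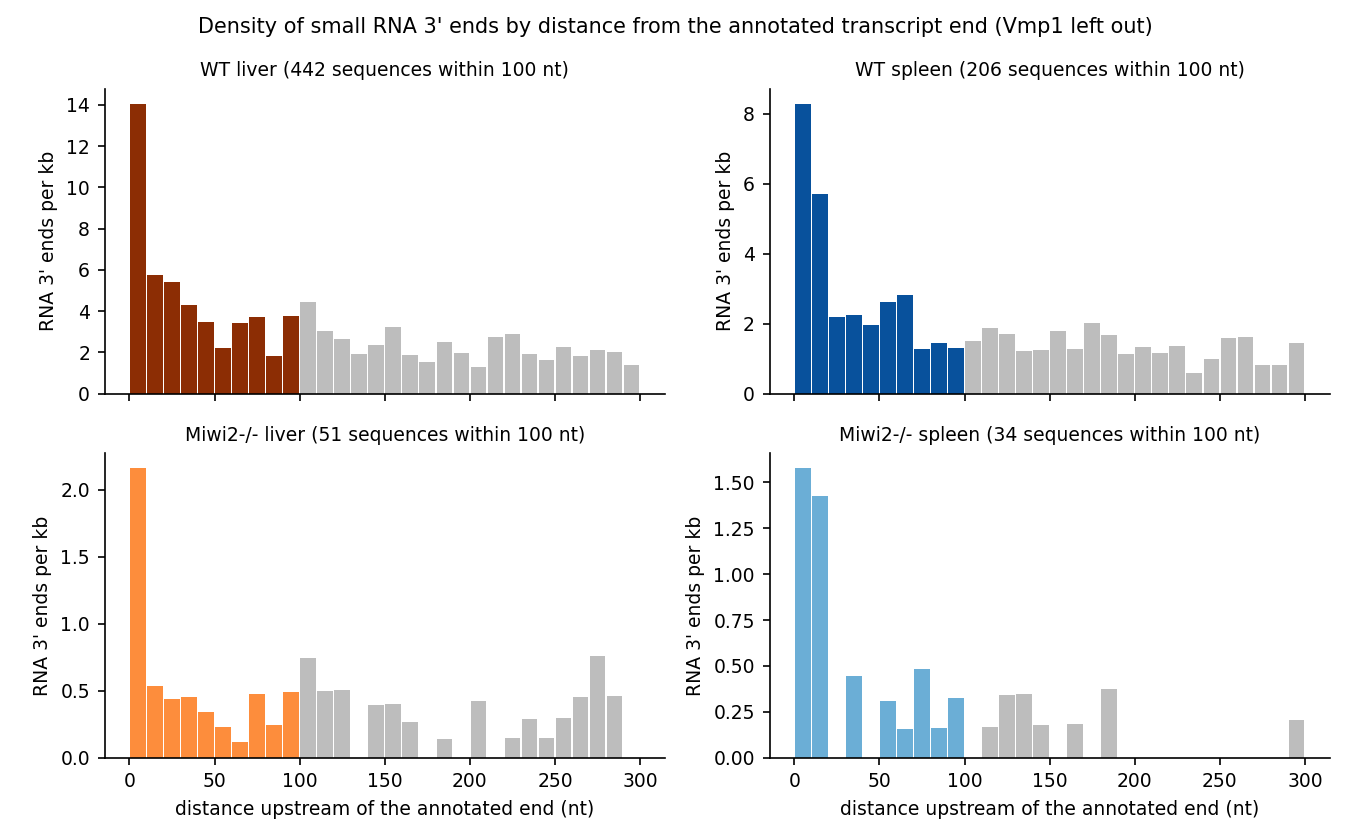
Density of small RNA 3' ends (per kb of 3' UTR, vertical axis, a separate scale for each library) in 10-nt steps from the annotated transcript end (0) to 300 nt upstream, with Vmp1 left out. Coloured bars are the 100 nt window and grey bars the 3' UTR beyond it. In every library the highest bar is the first, 14.1 per kb in WT liver and 8.29 per kb in WT spleen.

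The density was highest in the last 10 nt in both WT libraries and did not fall steadily farther upstream. With Vmp1 left out, WT liver had 14.1 sequences per kb at 0 to 9 nt, 5.77 at 10 to 19 nt, 4.29 at 30 to 39 nt and 2.54 at 101 to 200 nt. Farther upstream WT liver had 2.06 per kb at 201 to 300 nt, 1.56 at 301 to 500 nt, 1.71 at 501 to 1000 nt and 1.20 beyond. WT spleen had 8.29 per kb at 0 to 9 nt, 5.69 at 10 to 19 nt, 2.24 at 30 to 39 nt and 1.56 at 101 to 200 nt. Farther upstream it had 1.15 per kb at 201 to 300 nt, 1.46 at 301 to 500 nt, 1.71 at 501 to 1000 nt and 1.25 beyond, so beyond 100 nt it held no slope in 1 direction. Nothing marked the border of the window itself. Just inside it, at 90 to 99 nt, the density over all genes was 3.78 per kb in WT liver and 1.31 in WT spleen, against 2.53 and 1.56 at 101 to 200 nt.

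**Figure D2:**
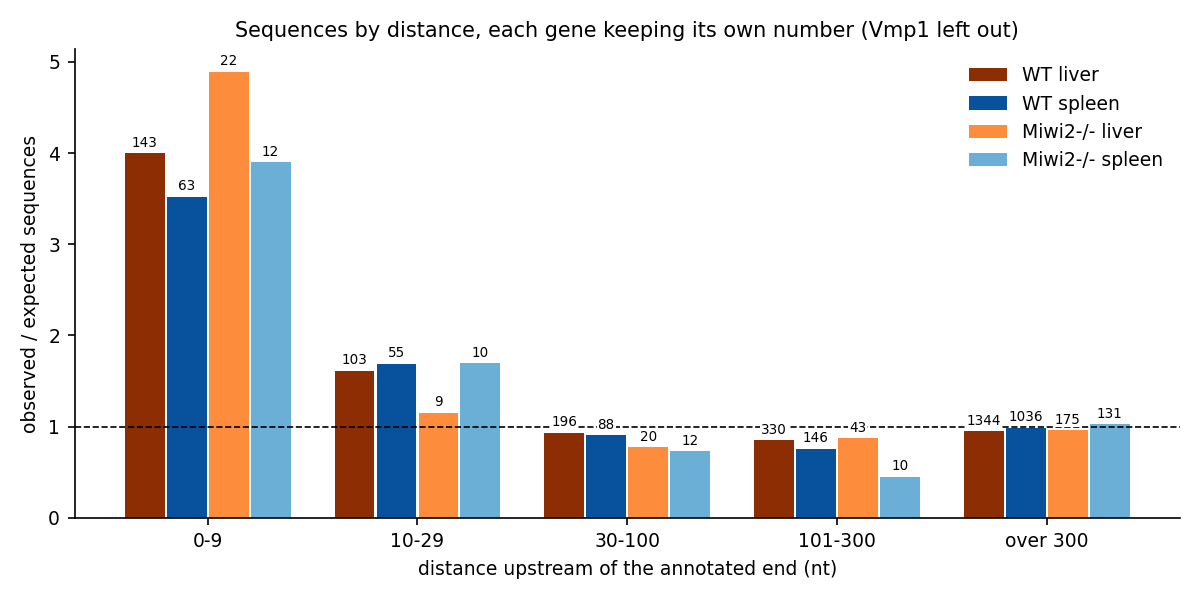
Observed over expected number of sequences (vertical axis) by distance from the annotated end (horizontal axis, nt) in the 4 libraries, where the expected number spreads each gene's own sequences evenly over its 3' UTR and Vmp1 is left out. Numbers above the bars are observed sequences, and the dashed line marks a ratio of 1. Every library stands between 3.52 and 4.89 at 0 to 9 nt and below 1 at 30 to 100 nt.

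Inside genes, too, the last 10 nt stood highest. At 0 to 9 nt, 143 sequences were found in WT liver where 35.7 were expected from each gene's own number, a ratio of 4.0. The ratio in that band was 3.52 in WT spleen (63 found, 17.9 expected), 4.89 in Miwi2-/- liver (22 found, 4.50 expected) and 3.90 in Miwi2-/- spleen (12 found, 3.08 expected). At 10 to 29 nt it was 1.61, 1.69, 1.15 and 1.69 in the same order, and at 30 to 100 nt 0.932, 0.906, 0.775 and 0.730. These bands were chosen after the distances were seen and were not tested.

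The RNA 3' ends lay at or after the first base of the poly(A) signal more often than the positions of the window do. A hexamer was searched on the sense strand, starting 10 to 40 nt upstream of each annotated end, with AATAAA taken first and ATTAAA otherwise. Of 42835 annotated 3' UTR ends of all protein-coding genes, 43.8% held AATAAA, 10.7% held only ATTAAA and 45.5% held neither. Among the 1131 such ends of genes in the WT liver list, 48.0% held AATAAA and 10.4% only ATTAAA. Among the 862 of the WT spleen list these were 43.7% and 11.3%. Of the 250 ends nearest to a WT liver sequence, 57.2% held AATAAA and 11.6% ATTAAA, and of the 150 ends nearest to a WT spleen sequence 57.3% and 17.3%. For the Miwi2-/- lists the AATAAA share was 57.1% of 42 ends in liver and 51.7% of 29 ends in spleen. Of the sequences themselves, 302, 155, 34 and 22 belonged to an end with a hexamer in WT liver, WT spleen, Miwi2-/- liver and Miwi2-/- spleen.

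In WT liver 163 of 302 sequences, or 54.0% (48.3-59.5), ended at or after the first base of the signal, where 24.6% of the window's positions lie. The share was 60.6% (52.8-68.0) in WT spleen, against 24.9% of positions. Counted against the whole hexamer, 139 WT liver sequences ended upstream of it, 21 inside it and 142 after it, and in WT spleen 61, 13 and 81 did. The Miwi2-/- liver list had 14 upstream, 0 inside and 20 after, and the Miwi2-/- spleen list 10, 1 and 11. In WT liver, ends after the hexamer were thus fewer than those upstream of it and inside it together. At or after the first base, the Miwi2-/- lists gave 58.8% (42.2-73.6) in liver against 24.6%, and 54.5% (34.7-73.1) in spleen against 24.9%. In this order the adjusted p-values by exact binomial tests were 3.70e-27, 9.76e-21, 2.90e-05 and 0.00460. Set against the positions of each sequence's own end, the shares that would fall there were 28.0%, 35.1%, 33.1% and 35.0%, with adjusted p = 4.81e-23, 1.95e-12, 0.00129 and 0.0642 by an exact test. By that reading the Miwi2-/- spleen library, with 22 sequences, did not pass. A sequence that ends within 9 nt of the annotated end lies after the signal's first base by construction, so this measurement and the distance are not independent.

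**Figure D3:**
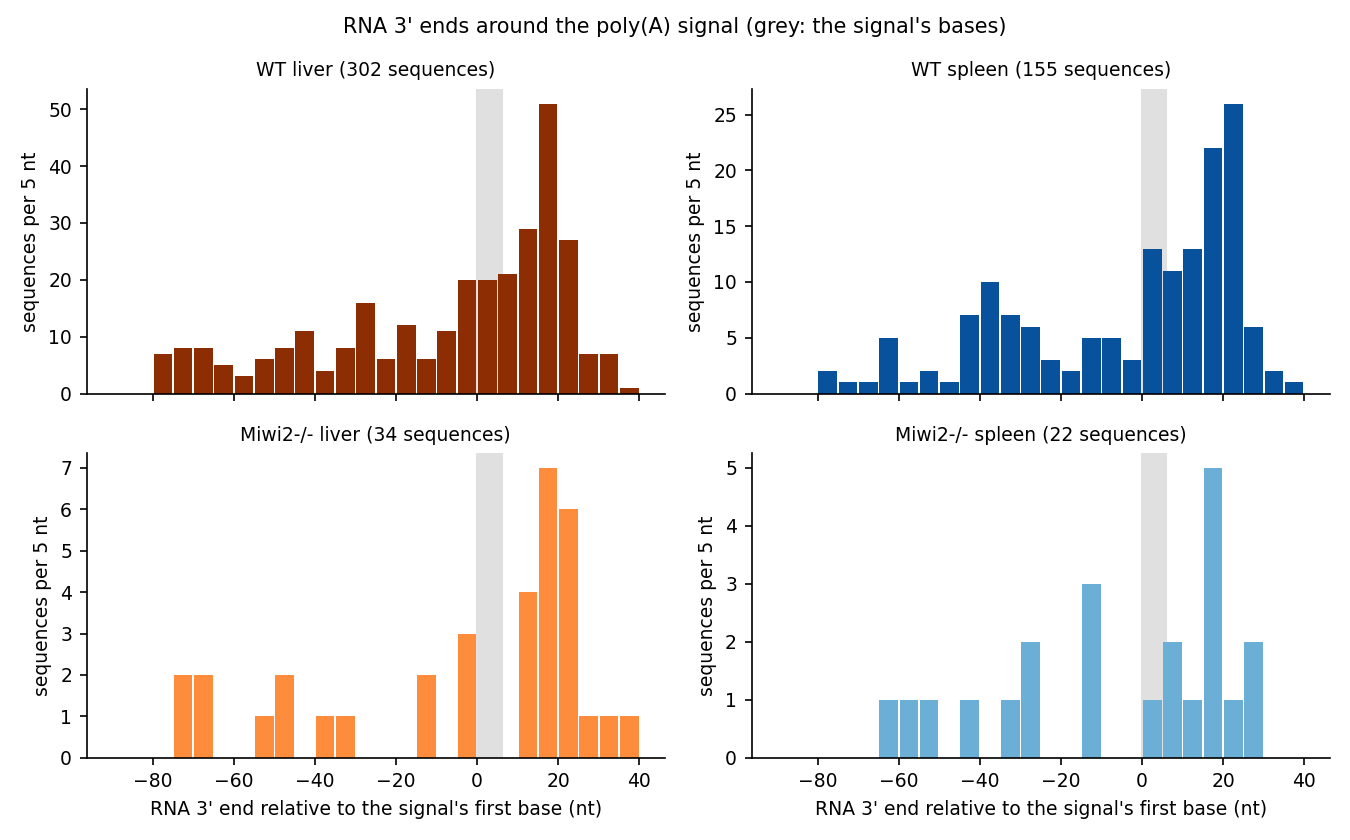
Number of sequences (vertical axis, per 5 nt) by the place of the RNA 3' end relative to the first base of the poly(A) signal (horizontal axis, nt, negative is upstream), for sequences whose annotated end has a signal. The grey band is the hexamer. In WT liver the tallest bar, 51 sequences, is at 15 to 19 nt, and in the 2 Miwi2-/- libraries the tallest bar stands at the same place.

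Between 10 and 29 nt after the first base of the hexamer lay 114 ends in WT liver (37.7%) and 67 in WT spleen (43.2%). The Miwi2-/- lists had 18 ends there in liver (52.9%) and 9 in spleen (40.9%). Many sequences therefore carried the hexamer in their own letters. The whole signal was inside 121, 60, 16 and 8 sequences, as in the Alb, Gpx1 and Lmo2 sequences printed above. Either hexamer occurred anywhere in 30.5% of the sequences in WT liver, against 3.27% of those in the rest of the 3' UTR. The shares were 33.5% and 2.46% in WT spleen, 33.3% and 1.39% in Miwi2-/- liver and 22.9% and 3.14% in Miwi2-/- spleen. The window contains the signal by definition of the search, so this contrast follows from position and is given as a description.

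At the 5' end, the sequences of the WT libraries began with A or U more often than the bases of the window did. In WT liver 42.9% (38.4-47.5) began with U, against 32.5% of the positions where such a sequence could start, with adjusted p = 4.67e-05 by an exact binomial test. WT liver also had A at 33.0% against 28.1%, which did not pass (adjusted p = 0.0702, exact test). In WT spleen it was A that passed, at 37.9% (31.5-44.8) against 28.2% with adjusted p = 0.0117, while U at 37.4% against 32.3% did not (adjusted p = 0.231, both exact tests). Whether the 2 tissues differ in which base is raised was not tested. G opened 11.7% of the sequences in WT liver and 7.88% in WT spleen, where 20.3% and 20.5% of start positions are G.

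**Figure D4:**
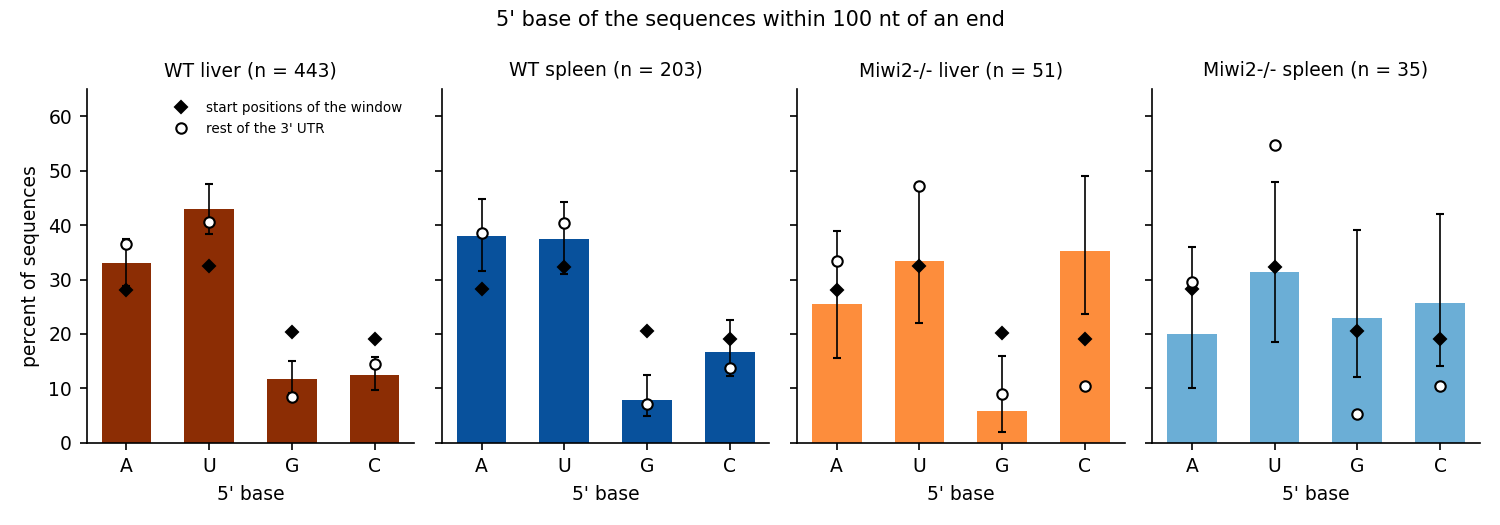
Percent of sequences (vertical axis) by 5' base in each library, with Wilson 95% intervals. Diamonds give the bases at the start positions the window allows and open circles the sequences in the rest of the 3' UTR, Mir21 included. WT bars for U and A lie above the diamonds, and in Miwi2-/- liver C stands at 35.3%.

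In the Miwi2-/- lists neither A nor U passed. In Miwi2-/- liver A opened 13 and U 17 of 51 sequences, and in Miwi2-/- spleen A opened 7 and U 11 of 35 (adjusted p from 0.559 to 1 by exact tests). C opened 18 of 51 sequences in Miwi2-/- liver, or 35.3% (23.6-49.0), where 19.1% of start positions are C. These 18 came from 12 genes, among them 3 from Gpx1 and 2 each from Adh1, Errfi1 and Mgst1. C was not among the bases chosen for a test.

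Against sequences elsewhere in the 3' UTR, neither A nor U differed past the threshold in any library (adjusted p from 0.128 to 0.877 by Fisher's exact test). That comparison includes the Mir21 sequences in the rest. With Vmp1 left out, U opened 43.0% of the sequences near the end in WT liver and 35.8% of those in the rest (adjusted p = 0.0226, Fisher's exact test), and no other library passed (adjusted p from 0.450 to 1).

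A last A that does not match the genome did not differ past the threshold between the end and the rest in 3 libraries. It was present in 45.6% of the sequences in WT liver, 47.1% in WT spleen and 43.1% in Miwi2-/- liver, against 45.3%, 43.8% and 38.5% in the rest of the 3' UTR (adjusted p = 0.915, 0.717 and 0.717, Fisher's exact test). Miwi2-/- spleen stood apart with 22 of 35, or 62.9% (46.3-76.8), against 37.7% (adjusted p = 0.0335, Fisher's exact test). Without Vmp1 this became 64.7% against 48.9% with adjusted p = 0.329 by the same exact test, so the call rested on the Mir21 sequences in the rest. A was the last base of 91.2% of all sequences near an end in WT liver and 93.2% in WT spleen, and of 84.3% and 85.7% in the Miwi2-/- liver and spleen. Of those that match the genome throughout, 88.5%, 91.4%, 85.0% and 80.0% ended in A. Elsewhere in the 3' UTR the shares of all sequences ending in A were 83.8%, 84.3%, 76.4% and 77.0%, so a last A was common in the whole lists. The lists do not show whether that A belongs to the RNA or was left from the adapter, and every 3' end and distance here counts the last base as listed. The part of the last A in the results was not tested beyond moving the RNA 3' end back over an unmatched A, which left every call in place.

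Mean lengths near the end and elsewhere differed by less than 1 nt. The mean was 23.7 nt near the end and 23.5 nt in the rest in WT liver, and 23.4 and 23.2 nt in WT spleen. The means were 23.3 and 22.8 nt in Miwi2-/- liver and 23.7 and 23.0 nt in Miwi2-/- spleen, and the difference was not tested. The 443 sequences of WT liver had 417 different RNA 3' ends, and the 206 of WT spleen had 198.

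As a share of all 21 to 26 nt 3' UTR sequences, those near an end made up 19.2% (17.6-20.9) in WT liver and 13.2% (11.6-15.0) in WT spleen. The spleen share was lower by 5.99 points (95% CI of spleen minus liver -8.29 to -3.63, adjusted p = 2.58e-06, Fisher's exact test over 3 comparisons). In the 51 genes with sequences in both WT lists the shares were 4.68% in spleen and 6.42% in liver and the difference did not pass (adjusted p = 0.255, Fisher's exact test). In Miwi2-/- liver the share was 14.7% (11.3-18.8), 4.55 points below WT (-8.27 to -0.161, adjusted p = 0.0687, Fisher's exact test). In Miwi2-/- spleen it was 15.4% (11.3-20.7), 2.20 points above WT (-2.28 to 7.71, adjusted p = 0.351, Fisher's exact test).

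Without Vmp1 the shares were 20.6% in WT liver and 14.7% in WT spleen, and 18.3% and 19.3% in the Miwi2-/- liver and spleen. In the 162 liver genes listed in both genotypes 51 of 348 sequences were near an end in Miwi2-/- and 238 of 1323 in WT (adjusted p = 0.228, Fisher's exact test). In the 101 spleen genes listed in both it was 15.5% in Miwi2-/- and 8.22% in WT (adjusted p = 0.00657, Fisher's exact test). Only genes present in the smaller Miwi2-/- list enter this comparison, which sets 1 library beside another. That choice kept all 35 Miwi2-/- spleen sequences near an end but 67 of the 206 in WT spleen. The test therefore cannot separate genotype from the choice of genes, and over all genes the difference did not pass.

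The sequences near ends came from 217 genes in WT liver, 135 genes in WT spleen, 40 genes in Miwi2-/- liver and 28 genes in Miwi2-/- spleen, and 122, 86, 34 and 23 of these genes had a single one. In WT liver the 5 leading genes held 18.5% of the sequences, and in WT spleen 8.74%.

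**Figure D5:**
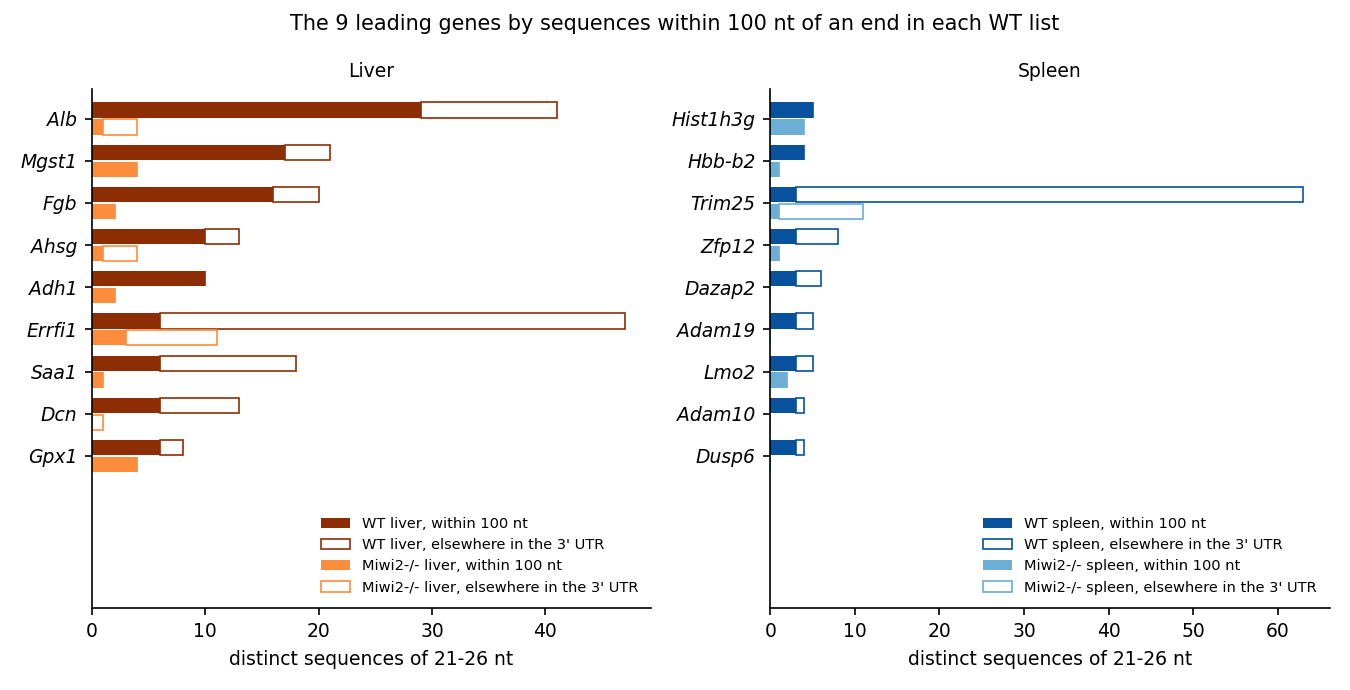
Distinct 21 to 26 nt sequences (horizontal axis) for the 9 leading genes by sequences within 100 nt of an end in WT liver and in WT spleen. Filled bars lie within 100 nt and open bars elsewhere in the 3' UTR or past the annotated end, with WT above Miwi2-/- for each gene. In WT, Alb leads in liver with 29 of 41, while Errfi1, Saa1, Dcn, Trim25 and Zfp12 have most of their sequences outside the window.

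Genes of secreted plasma proteins stood out in liver by their counts. They had 88 sequences near an end among 182 in WT liver, or 48.4% (41.2-55.6), from 15 of the 20 list genes with sequences, where the share over all genes was 19.2%. They made up 19.9% of all sequences near an end in WT liver. In Miwi2-/- liver 7 of 19 sequences of these genes were near an end, from 6 genes, and neither spleen list held any. The shares were not adjusted for 3' UTR length, and over all liver genes the window takes up 7.31% of it. In Hpx it takes up all 72 nt, in Ambp 101 of 103 nt, in Pzp 107 of 140 nt and in Fgb 101 of 159 nt. In other list genes it takes up less, as in Apob with 202 of 941 nt and Fgg with 202 of 574 nt.

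Alb, which encodes serum albumin, the main carrier protein of blood plasma, had 29 of 41 sequences near its end in WT liver and 1 of 4 in Miwi2-/- liver. Its annotated 3' UTR covers 173 nt, so the window takes up most of it. The 29 sequences had 22 different 3' ends and 23 different 5' ends from 0 to 100 nt upstream of the end, with 9 within 9 nt, and 12 carried AATAAA. They tile the window: 10 of them end 82 nt or more upstream and others reach to the last base.

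Fgb, the fibrinogen beta chain of the blood clot, had 16 of 20 in WT liver and 2 of 2 in Miwi2-/- liver, and 8 of the 16 ended within 9 nt although its end has neither hexamer. Ahsg, which encodes the calcium-binding plasma protein fetuin-A, had 10 of 13 in WT and 1 of 4 in Miwi2-/- liver, with a median distance of 74 nt in WT. Saa1, an acute-phase apolipoprotein, had 6 of 18 in WT liver, all 37 to 60 nt from the end, and 1 of 1 in Miwi2-/- liver. Apob, the structural protein of very low density lipoproteins, had 5 of 15 and Hpx, the heme-binding hemopexin, 4 of 6 in WT liver. Pzp, a protease-binding plasma protein, had 4 of 6 and Ambp, a precursor of a plasma protease inhibitor, 3 of 3. Cfi, which encodes complement factor I, and Serpind1, the thrombin inhibitor heparin cofactor II, had 2 of 3 each. Saa1 and Apob thus had most of their sequences outside the window in WT liver, as did other plasma protein genes. Fgg, the fibrinogen gamma chain, had 2 of 10 and Rbp4, the carrier of retinol, 2 of 8, and Serpina3k, a serine protease inhibitor gene, had 1 of 17. Their positions thus differed from gene to gene, from the last base to the far side of the window.

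Metabolic enzymes of the hepatocyte had 43 sequences near an end among 227 in WT liver, or 18.9% (14.4-24.5), close to the 19.2% of all genes, from 17 of 25 genes. In Miwi2-/- liver 7 of 47 were near an end, from 5 genes. Adh1, an alcohol dehydrogenase, had 10 of 10 in WT liver and 2 of 2 in Miwi2-/- liver, and its 3' UTR covers 142 nt. Cyb5r3, a cytochrome b5 reductase, had 3 of 3 in WT liver, 1 to 7 nt from the end, and Cyp2f2, a cytochrome P450, also had 3 of 3. Other enzymes had few near the end: Tdo2, which opens the ring of tryptophan, had 2 of 13 in WT liver, Gpam, the first enzyme of glycerolipid synthesis, 2 of 12 and Uox, the urate oxidase, 2 of 19.

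Among liver genes outside the lists, Mgst1, a membrane-bound glutathione transferase, had 17 of 21 in WT and 4 of 4 in Miwi2-/- liver. Mgst1 has several annotated ends, and its window takes in 369 of 647 nt of 3' UTR. Gpx1, the glutathione peroxidase that removes hydrogen peroxide, had 6 of 8 in WT and 4 of 4 in Miwi2-/- liver. In Gpx1, 5 of the 6 WT and all 4 Miwi2-/- sequences ended within 9 nt and carried AATAAA. Errfi1, a feedback inhibitor of the EGF receptor, had 6 of 47 in WT and 3 of 11 in Miwi2-/- liver, so most of its sequences lay outside the window. Dcn, the matrix proteoglycan decorin, had 6 of 13 in WT liver, 8 to 29 nt from the end, and 0 of 1 in Miwi2-/- liver.

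The spleen sequences came from fewer genes than those of liver, with fewer in each leading gene. Blood cell genes had 15 sequences near an end among 91 in WT spleen, or 16.5% (10.3-25.4), from 5 of 7 genes, where the share over all genes was 13.2%. In Miwi2-/- spleen they had 4 of 14. Hbb-b2, an adult beta-globin chain, had 4 of 4 in WT and 1 of 1 in Miwi2-/- spleen. S100a8 and S100a9, which encode the paired calcium-binding proteins of neutrophils, had 3 of 3 each in WT spleen, and S100a8 had 2 of 2 in Miwi2-/- spleen. Alas2, the first enzyme of heme synthesis in red cell precursors, had 2 of 2 in WT spleen. The window covers the whole 70 nt 3' UTR of S100a8, 101 of 117 nt in S100a9, 101 of 135 nt in Hbb-b2 and 117 of 150 nt in Alas2. Sequences in the 3' UTR of these genes thus had little or no room outside the window. Trim25, a ubiquitin ligase of the antiviral response, had 3 of 63 in WT spleen, 1 of 11 in Miwi2-/- spleen and 0 of 54 in WT liver. Trim25 thus held 63 of the 91 list sequences in WT spleen, and the 16.5% leans on this gene.

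Replication-dependent histone genes, whose messages typically carry no poly(A) tail, were among those with sequences near their annotated ends. They had 10 of 48 in WT spleen, 7 of 28 in Miwi2-/- spleen, 2 of 9 in WT liver and 0 of 1 in Miwi2-/- liver. These are 20.8% (11.7-34.3) in WT spleen and 25% (12.7-43.4) in Miwi2-/- spleen, where all genes had 13.2% and 15.4%. In both spleen lists the histone sequences near an end came from 3 genes. Hist1h3g, a histone H3 gene, had 5 of 5 in WT and 4 of 4 in Miwi2-/- spleen, 11 to 49 nt and 4 to 14 nt from the end, and its end has neither hexamer. Hist1h4h, a histone H4 gene, had 3 of 3 and 2 of 2, and Hist1h4a, another one, had 2 of 2 and 1 of 1. The window covers the whole 3' UTR of Hist1h3g (98 nt) and Hist1h4h (96 nt) and 101 of 157 nt of Hist1h4a. The full counts of Hist1h3g and Hist1h4h thus could hardly be lower, and the spleen histone shares rest mostly on them. The annotated end of Hist1h4h has ATTAAA and that of Hist1h4a AATAAA, and whether these messages carry a tail was not tested. Hist1h1c, a linker histone gene with the most sequences of the list, had 0 of 37 in WT spleen, 0 of 21 in Miwi2-/- spleen and 1 of 5 in WT liver. Histones thus gave 7 of the 35 sequences near ends in Miwi2-/- spleen and 10 of the 206 in WT spleen. Leaving them out ended no call.

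Other leading spleen genes differed in where their sequences lay. Adam19, a membrane metalloprotease, had 3 of 5 in WT spleen, all within 1 nt of the end. Lmo2, a transcription cofactor of blood stem cells, had 3 of 5 in WT and 2 of 2 in Miwi2-/- spleen, and 2 WT and both Miwi2-/- sequences ended within 9 nt. Rplp1, an acidic protein of the large ribosomal subunit, had 3 of 3 and 2 of 2, from 3 to 16 nt from the end, in a 3' UTR of 43 nt. Vegfa, the endothelial growth factor, had 3 of 4 at 2 to 12 nt. Dusp6, a phosphatase of ERK kinases, had 3 of 4 at 2 to 31 nt, and Adam10, another membrane metalloprotease, 3 of 4 at 7 to 86 nt. Dazap2 had 3 of 6 at 21 to 23 nt, and Zfp12, a zinc finger gene, 3 of 8 at 10 to 99 nt. Genes of the cleavage and polyadenylation complex itself had too few sequences to be read, with 0 near an end among 2, 2, 1 and 0 in WT liver, WT spleen, Miwi2-/- liver and Miwi2-/- spleen. Those of Argonaute, Piwi and small RNA processing proteins had 2, 6, 1 and 1, of which 1 was near an end, from Eif2c1 in WT liver.

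Few sequences near ends were shared between libraries. WT liver and WT spleen shared 0 sequences and 10 genes near an end, where 51 genes had sequences in both WT lists. In the rest of the 3' UTR these WT libraries shared 160 sequences with Mir21 included, or 8.71% in liver and 11.9% in spleen. With Vmp1 left out they shared 39, or 2.33% and 3.30%. Sharing between the WT tissues was thus low there too, and the difference from the ends was not tested. WT and Miwi2-/- liver shared 6 sequences, which is 1.35% of the WT and 11.8% of the Miwi2-/- sequences near an end. WT and Miwi2-/- spleen shared 3, which is 1.46% and 8.57%. Elsewhere in the 3' UTR, Mir21 included, the shared sequences were 27.1% of the Miwi2-/- liver and 36.6% of the Miwi2-/- spleen sequences. Without Vmp1 these became 23 of 218, or 10.6%, in liver and 26 of 141, or 18.4%, in spleen, near the shares at the ends in liver and above them in spleen, and the difference was not tested. By gene the sharing was larger: 29 of 40 Miwi2-/- liver genes and 17 of 28 Miwi2-/- spleen genes also had a sequence near an end in WT.

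Seen from the WT side, 84 of the 217 liver genes with a sequence near an end, or 38.7%, had any 21 to 26 nt 3' UTR sequence in Miwi2-/- liver, where 33.4% of all 485 listed genes did. A sequence near an end in Miwi2-/- liver was found for 29 of them, or 13.4%, against 8.25% of all listed genes. In spleen 39 of 135 genes, or 28.9%, had any sequence in the Miwi2-/- list, against 29.6% of all 341 genes, and 17, or 12.6%, had one near an end, against 8.21%. Both spleen and liver shares for any sequence were near those of all genes. The Miwi2-/- lists are far smaller than the WT lists, their libraries were sequenced less deeply, and depth and genotype cannot be told apart with 1 library each. In each tissue 11 genes, of 40 in liver and 28 in spleen, had a sequence near an end in Miwi2-/- and none there in WT. Of all listed genes, 44.7% in liver and 39.6% in spleen had one near an end in WT.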

How the data were processed

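Small RNA was sequenced in 4 libraries, 1 for each tissue (liver or spleen) and genotype (WT or Miwi2-/-). The labels name CASAVA 1.8, cutadapt, Bowtie and bedtools and the mm9 build. Adapters were trimmed and sequences matching known noncoding RNAs were filtered out by the authors before alignment, although Mir21 sequences remain. The deposited files are lists of distinct sequences inside the 3' UTR clusters, with no read count, position or strand, and all are written in the direction of the plus strand. The reads behind a listed sequence are therefore unknown here. By the study's read totals the Miwi2-/- libraries were several times shallower than the WT libraries. No value was scaled to depth, and intervals (Wilson or exact, 95%) cover counting error only. Sense and antisense RNAs cannot be separated in such lists.

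All 7845 sequences were placed on NCBIM37 with at most 1 mismatch by a purpose-written program (Python 3.11.15, numba 0.67.0, and numpy 2.4.6) tested on simulated sequences. Each had a single best place. The 3' UTRs and transcript ends were those of GENCODE M1, and the gene gave the strand, aided by the deposited clusters. Distances count the RNA 3' base as listed. Densities and 5' bases were compared with scipy 1.17.1 by exact tests (threshold 0.05 after Benjamini-Hochberg adjustment over 4 libraries, 3 comparisons of shares or 8 tests of bases). The 5' base values omit 3 WT spleen sequences whose place is a 3' UTR on either strand.

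The 10 genes with the most sequences in each WT tissue, genes with at least 2 in a Miwi2-/- list and genes of the 6 lists with at least 2 in a WT list are named, and up to 3 sequences a gene that held the hexamer or ended within 5 nt were eligible for printing. Some of the genes this rule names are not reported here. Eif2c1, Hist1h1c and Serpina3k were named after their counts were seen. Sequences on 1 chromosome were counted and are not printed. The members, gene lists and tests were chosen with earlier results of these data known.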

Additional observations from a re-analysis of the deposited data

Results flagged for a closer look

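The share of 21 to 26 nt 3' UTR sequences that lay near an end differed between WT tissues, by -5.99 points in spleen against liver. Miwi2-/- minus WT was -4.55 points in liver and 2.20 points in spleen, so the single libraries moved in opposite directions in the 2 tissues. The difference between those 2 changes was not tested, and neither passed on its own.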

How the results depend on the processing

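No paired analysis was possible because each tissue and genotype had 1 library. Every alternative on windows, ends, strand, genes and mismatches was tried on each density, share, 5' base and signal result. The within-gene, within-end, histone, shared-gene and Vmp1 terminal A and shared-sequence alternatives were chosen after seeing the data. Of 64 alternative density ratios 61 kept their call, with the exceptions within genes, Vmp1 included: 1.17 (WT spleen, no longer past the threshold), and 0.915 (Miwi2-/- liver) and 0.900 (Miwi2-/- spleen), which lie below 1 and did not pass. Of 60 signal values 59 did, and within ends Miwi2-/- spleen had an excess of 19.6 points that no longer passed.

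The share difference of Miwi2-/- from WT liver passed at -6.26 points with a window of 200 nt and at -4.93 with the most distal end of each gene. Both of these settings keep the Mir21 sequences. It was -2.27 points with Vmp1 left out and -2.08 with 1 sequence per RNA 3' end, and did not pass in either. In shared genes spleen minus liver was -1.74 points and no longer passed, while Miwi2-/- minus WT spleen passed at 7.27. The genes of that last comparison were fixed by the Miwi2-/- list, so it cannot separate genotype from the choice of genes.

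For 5' A, the excess in WT liver passed at 5.68 points (200 nt), 5.70 (other mismatches left out) and 5.07 (all lengths). In WT spleen it was 8.27 at 50 nt and no longer passed, and in Miwi2-/- liver it turned to 2.01 (50 nt) and 3.62 (200 nt). For 5' U, WT spleen passed at 7.19 with all lengths. The Miwi2-/- liver value turned to -6.56 (50 nt), -4.41 (most distal end) and -0.526 (genes with at least 3 WT sequences). The Miwi2-/- spleen value turned to 7.23 (50 nt), 2.42 (200 nt), 0.0842 (without Vmp1), 0.0954 (1 sequence per 3' end), 5.26 (all lengths), 0.0564 (genes with at least 3 WT sequences), 3.41 (without histones) and 1.25 (within genes). None of these 5' values that turned had passed.

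Without Vmp1 the unmatched terminal A near the end minus the rest turned to -3.76 points in WT liver, -2.15 in WT spleen and -6.40 in Miwi2-/- liver, and was 15.8, no longer past the threshold, in Miwi2-/- spleen. Vmp1 holds the Mir21 sequences of the rest. The cause of the other changes was not tested. The 51 and 35 sequences of the Miwi2-/- lists limit what can be told there.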
